A study of Mus musculus with 2 samples.

Results

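The immediate-early response genes Ier2, Ier3, Ier5 and Ier5l, the growth arrest and DNA damage genes Gadd45a, Gadd45b and Gadd45g, the polo-like kinase genes Plk2 and Plk3, and Phlda1 were examined in ATDC5 cells 30 min after Nell-1 or PBS. These 10 early stress genes were measured by 16 probe sets, of 45037 probe sets and 18193 named genes on the arrays. They were taken by symbol: every probe set annotated with exactly 1 gene symbol equal to one of the 10 names. The 10 names were chosen by gene family with the signals and log2 ratios of these same 2 arrays known, so every ratio given for them is a description.

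ATDC5 is a chondrogenic line of mouse cells, and Nell-1 is a secreted glycoprotein with bone-forming activity. All cells were starved of serum and then given the protein synthesis inhibitor cycloheximide (CHX) at 10 µg/ml, alone for 30 min. The CHX+PBS group then received PBS, and the CHX+Nell-1 group received recombinant human Nell-1 at 100 ng/ml, each for a further 30 min. There was 1 Affymetrix mouse expression array per group, prepared from total RNA, and the stated aim was to find genes that respond without new protein synthesis. CHX was present in both groups, so the ratios compare Nell-1 with PBS under CHX and do not show the effect of CHX itself.

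Serum, growth factors, cytokines and DNA damage are known to induce these genes within minutes. Their transcripts are mostly short-lived, and blocked translation is known to let such transcripts accumulate. IER proteins are small regulators without enzymatic activity. GADD45 proteins bind cell-cycle proteins and the kinase MAP3K4, which feeds the p38 and JNK stress pathways. PLK2 and PLK3 are serine/threonine kinases with a polo-box domain, and PHLDA1 is a pleckstrin-homology-like protein linked to apoptosis. In cartilage, Gadd45b is known from hypertrophic chondrocytes.

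The promoter windows of the genes are shown first. Those of Gadd45a, Plk2 and Plk3 were searched too but are not printed, and Gadd45a and Plk2 also had lower deposited signals with Nell-1. Whether the motifs of a window bear on the ratio of its gene was not tested. The RefSeq promoter table of build GRCm38.p6 held 8 of the 10 genes, each as 300 bases from 250 before to 50 after the annotated start, and Ier2 and Phlda1 were not among them. The windows printed are Ier3 at chr17:35821463-35821762 on the plus strand, Ier5 at chr1:155099587-155099886 on the minus strand, Ier5l at chr2:30474150-30474449 on the minus strand, Gadd45b at chr10:80929841-80930140 on the plus strand and Gadd45g at chr13:51846425-51846724 on the plus strand. Each runs 5′ to 3′ along the gene, and capitals mark every match to a searched motif on either strand.
Ier3: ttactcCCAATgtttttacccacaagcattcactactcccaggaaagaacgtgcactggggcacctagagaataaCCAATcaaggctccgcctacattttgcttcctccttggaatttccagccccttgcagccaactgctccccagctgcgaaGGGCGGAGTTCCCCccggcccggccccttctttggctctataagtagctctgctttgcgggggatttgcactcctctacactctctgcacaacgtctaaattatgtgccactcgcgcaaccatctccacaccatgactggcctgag
Ier5: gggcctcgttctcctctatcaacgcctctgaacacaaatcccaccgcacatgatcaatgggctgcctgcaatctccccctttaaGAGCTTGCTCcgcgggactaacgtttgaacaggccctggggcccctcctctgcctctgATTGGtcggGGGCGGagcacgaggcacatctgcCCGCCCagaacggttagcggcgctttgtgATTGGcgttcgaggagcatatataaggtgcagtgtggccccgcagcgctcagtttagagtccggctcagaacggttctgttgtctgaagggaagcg
Ier5l: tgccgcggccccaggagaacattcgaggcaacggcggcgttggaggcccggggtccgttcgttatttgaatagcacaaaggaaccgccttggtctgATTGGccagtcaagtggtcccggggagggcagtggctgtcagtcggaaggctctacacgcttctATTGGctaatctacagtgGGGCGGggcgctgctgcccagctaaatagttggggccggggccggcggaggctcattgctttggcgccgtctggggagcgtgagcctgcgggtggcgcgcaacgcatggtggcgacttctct
Gadd45b: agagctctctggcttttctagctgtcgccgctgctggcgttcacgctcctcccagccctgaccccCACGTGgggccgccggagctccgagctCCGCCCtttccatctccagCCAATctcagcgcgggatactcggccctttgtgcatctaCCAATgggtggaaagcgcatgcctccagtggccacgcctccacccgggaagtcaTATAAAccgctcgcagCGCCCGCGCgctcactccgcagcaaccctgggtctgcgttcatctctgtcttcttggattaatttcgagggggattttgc
Gadd45g: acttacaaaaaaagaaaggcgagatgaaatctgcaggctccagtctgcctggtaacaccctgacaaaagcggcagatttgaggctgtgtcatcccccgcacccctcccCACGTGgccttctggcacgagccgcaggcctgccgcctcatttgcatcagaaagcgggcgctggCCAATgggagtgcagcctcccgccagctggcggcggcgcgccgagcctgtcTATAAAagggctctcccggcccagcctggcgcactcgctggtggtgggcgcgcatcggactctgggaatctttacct

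The motifs searched on both strands were the TATA box (TATAAA), the CCAAT box (CCAAT), the GC box (GGGCGG), the cyclic AMP response element or CRE (TGACGTCA) and its core (TGACG, which lies inside it), the AP-1 site (TGANTCA), the EGR site (GCGNGGGCG), the E-box (CACGTG), and by name the serum response element, the NF-kB site and the p53 decamer. A CCAAT box was found in 6 of the 8 windows, against 37.4% of 32851 promoters of the same length. A GC box was in 7 of the 8, against 35.7%. The 8 windows were rich in G and C, at 54.0% for Ier3 to 66.3% for Plk2, and the median of all promoters was 52.7%.

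Among the printed windows, those of Gadd45b and Gadd45g each held the exact letters TATAAA, found in 13.6% of all promoters. Variants of the TATA box were not searched, so the other windows cannot be said to lack one. Ier3 held a match to the NF-kB site at -92 to -83 from the start, overlapping a GC box at -96 to -91, and 4.51% of promoters had an NF-kB match. The EGR site in Gadd45b lay at -30 to -22, and 5.55% of promoters held one. Matches to the p53 decamer were in Gadd45a at -40 to -31 and in Ier5 at -166 to -157, with a share of 8.36% among all promoters.

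The complete CRE was found in Plk2 alone of the 8, at -62 to -55, and in 1.79% of all promoters. Its core was in Plk2 and Plk3, against 20.8%. None of the 8 windows held the serum response element (1.63% of promoters) or the AP-1 site (7.81%). A match or its absence describes the letters of these windows, and factor binding was not measured.

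**Figure D1:**
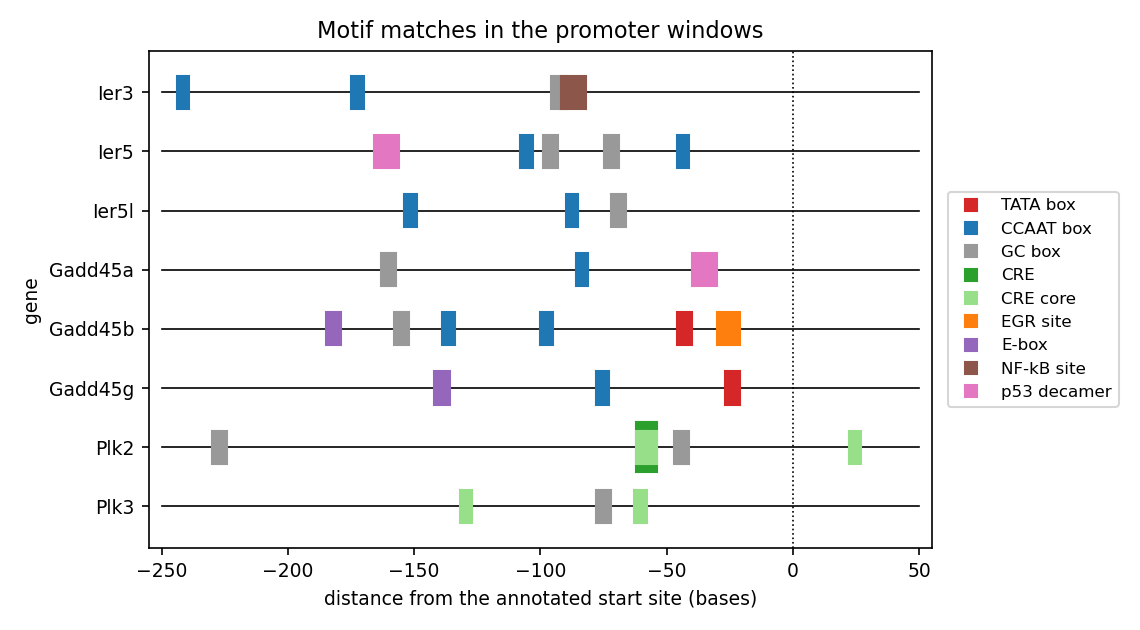
Motif matches in the promoter windows of 8 genes, with the distance from the annotated start site in bases on the horizontal axis (start at the dotted line) and 1 gene per line. Coloured boxes span each match on either strand. CCAAT boxes (blue) were found in 6 genes and the complete CRE in Plk2 alone, at -62 to -55.

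The deposited values are MAS5 signals, linear intensities per probe set in arbitrary units, and the log2 ratio is CHX+Nell-1 over CHX+PBS. No culture was repeated, so no error between cultures and no test can be given, and the number of arrays limits the precision. As a yardstick, the robust SD of the log2 ratios of all probe sets was taken in each of 10 equal bins of mean signal. It was 0.21 in the brightest bin and 2.23 in the bin between 13.2 and 23.8, and it mixes measurement noise with real differences. A gene is represented by its brightest probe set over both arrays, and "above the median" means a mean signal of at least 64.3, the median of all probe sets. The 2% trimmed mean was 500.003 on both arrays. In these bulk samples fewer cells of a type and less RNA per cell cannot be told apart.

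The ATDC5 label was compared with marker genes. Of 12 chondrogenic markers 8 were above the median, and the signals of all 12 summed to 6153 with PBS and 5802 with Nell-1. The sums do not show a shared direction: of those 8, 4 had log2 ratios below 0 and 4 above. At 1.5-fold 2 of the 8 were higher and 0 lower, against 4.56% and 7.53% of all genes above the median. Of 10 mesenchymal markers 9 were above the median signal (185880 and 162778). None of 6 endothelial, 2 of 6 epithelial and 4 of 7 measured haematopoietic markers were above it, with summed signals of 227 and 112, 631 and 522, and 751 and 695. Of all 18193 genes 11600 were above the median, and the chondrogenic and haematopoietic counts were both near that share. The 3′ over 5′ signal ratio, a sign of RNA integrity, was 1.32 and 1.28 for Actb and 0.85 and 0.86 for Gapdh. All 24 probe sets for poly-A spike-ins, bacterial RNAs added before labelling, read lower with Nell-1 than with PBS, at a median log2 ratio of -0.49. All 18 hybridisation spike-ins also read lower, with a median of -0.18.

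With Nell-1, 8 of the 10 genes had a lower signal and 2 a higher one, but after centring on the poly-A spike-ins 1 was lower and 9 higher. That centring raises every ratio alike. It put the median of the 10 genes at 0.24 and that of all genes above the median signal at 0.46. As deposited, 54.2% of all 11600 genes above the median were below 0. The differences were small. Only Ier5l passed 1.5-fold, the filter the submitters state, which makes 1 of 10 genes lower against 7.53% of all genes above the median. None of the 10 was 1.5-fold higher, against 4.56%, and 1 in 10 is near the background share. The median log2 ratio of the 10 genes was -0.26, and that of all genes above the median was -0.03. For 5 of the 10 genes, Ier2, Ier3, Ier5, Ier5l and Gadd45a, the ratio lay further below 0 than 1 robust SD at their signal, against 18.3% of all genes above the median. The part of the spike-in difference in these ratios was not tested.

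**Figure D2:**
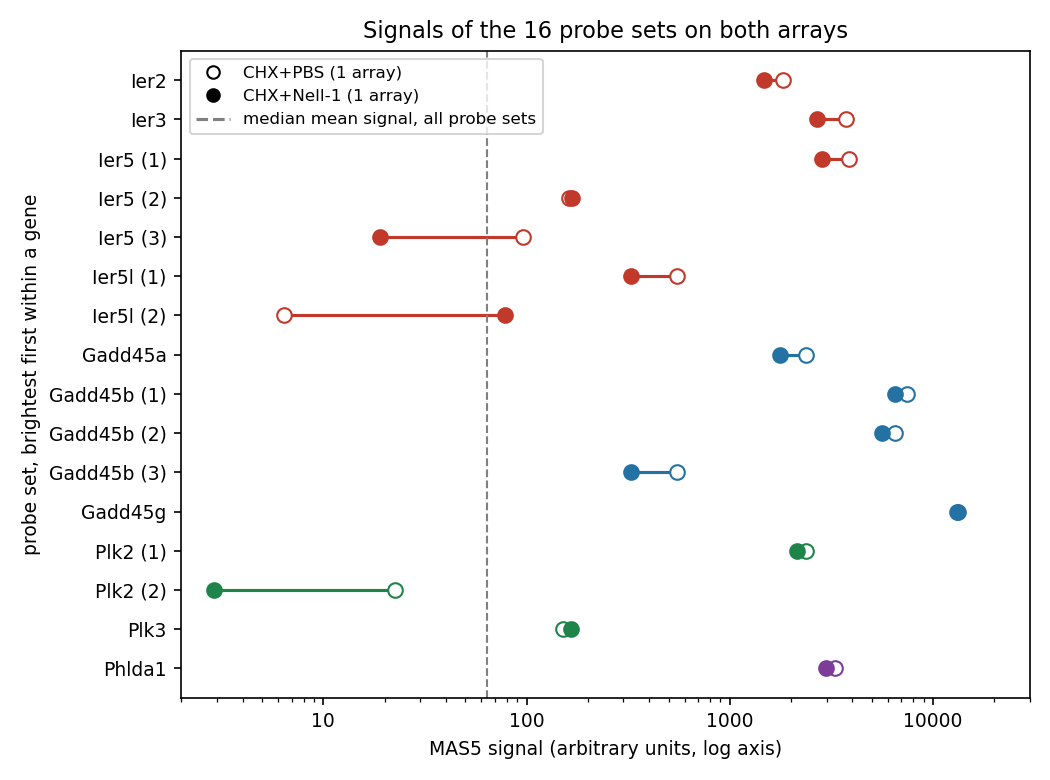
MAS5 signals (arbitrary units, log axis) of the 16 probe sets, with the CHX+PBS array as open circles and the CHX+Nell-1 array as filled circles, 1 array each. The dashed line is the median mean signal of all probe sets (64.3). The probe sets above the line show short gaps, the widest being 1.69-fold for the third Gadd45b probe set, and the 3 with a mean signal below it show wide gaps in both directions.

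The 4 IER genes were all lower with Nell-1 on their brightest probe sets, with log2 ratios from -0.74 to -0.31 and a median of -0.46. From the lowest ratio up, their order was Ier5l, Ier3, Ier5 and Ier2, and neighbours in that order differed by less than the larger of their robust SDs. After poly-A spike-in centring Ier5l alone stayed below 0, at -0.25, and the other three lay at 0.02 to 0.18.

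Ier3, also called IEX-1, acts on cell survival and on ERK and NF-kB signalling. Its probe set 1419647_a_at (gene ID 15937) read 3720 with PBS and 2678 with Nell-1. The Nell-1 array was the lower by 1.39-fold, a log2 ratio of -0.47, where the robust SD was 0.21. In its signal bin 1.98% of probe sets had a lower ratio.

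Ier5, whose protein works with the phosphatase PP2A and the heat shock factor HSF1, had 3 probe sets that differed from each other. The brightest, 1417612_at (gene ID 15939), read 3872 with PBS and 2845 with Nell-1, the lower by 1.36-fold, with 2.55% of its bin lower. The second, 1460009_at, read 161 and 167, with a log2 ratio of 0.05, so the arrays were level there. The third, 1417613_at, read 96.4 and 18.9, which is 5.09-fold lower, but its mean signal of 57.7 was below the median and 33.1% of probe sets in that bin were at least 1.5-fold lower.

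Ier5l is a paralog of Ier5 whose role is less well described. Its brighter probe set, 1419066_at (gene ID 72500), read 550 with PBS and 328 with Nell-1, which is 1.68-fold lower, at a log2 ratio of -0.74 with a robust SD of 0.33. In that bin 4.82% of all probe sets were at least 1.5-fold lower. The other probe set, 1455881_at, went the opposite way, with 6.39 and 78.4 and a log2 ratio of 3.62. It was below the median signal with a robust SD of 0.93 in its bin, and 99.6% of that bin had a lower ratio. The mean of the 2 Ier5l probe sets was 1.44, so the direction for this gene depends on which probe sets are used.

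Ier2, a nuclear protein gene of the family, was measured by 1 probe set, 1416442_at (gene ID 15936). It read 1826 with PBS and 1470 with Nell-1, the lower by 1.24-fold. The log2 ratio of -0.31 was just beyond the robust SD of 0.28, and 12.6% of its bin had a lower ratio.

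The 3 GADD45 genes were not alike in ratio. Gadd45a was lower, Gadd45b slightly lower and Gadd45g level, with a median log2 ratio of -0.20, and all 3 lay above 0 after poly-A spike-in centring. The GADD45 proteins are close paralogs that differ mainly in what induces them: p53 and DNA damage for Gadd45a, NF-kB and TGF-beta for Gadd45b, and cytokines for Gadd45g.

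Gadd45a had 1 probe set, 1449519_at (gene ID 13197), at 2365 with PBS and 1777 with Nell-1. That was 1.33-fold lower, a log2 ratio of -0.41, and 3.26% of its bin lay lower. Gadd45b had 3 probe sets above the median, and all 3 were lower with Nell-1. The brightest, 1450971_at (gene ID 17873), read 7479 and 6489, a log2 ratio of -0.20.

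The second Gadd45b probe set, 1449773_s_at, read 6479 and 5603, with a log2 ratio of -0.21. Both bright probe sets were therefore about 1.15-fold to 1.16-fold lower, at about the robust SD. The third, 1420197_at, read 553 and 328, 1.69-fold lower, at a log2 ratio of -0.75. It was the one probe set besides that of Ier5l to pass 1.5-fold above the median. The size for Gadd45b differed with the probe set, and the direction did not as deposited, while after poly-A spike-in centring the brightest lay at 0.29 and the third at -0.26.

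Gadd45g had 1 probe set, 1453851_a_at (gene ID 23882), with 13101 with PBS and 13335 with Nell-1. Its log2 ratio of 0.03 was well inside the robust SD, and 56.7% of its bin had a lower ratio. It was thus in the middle of probe sets of like signal.

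The 2 polo-like kinase genes differed little on their brightest probe sets. Plk2, a kinase induced by serum and active in centriole duplication, read 2372 with PBS and 2143 with Nell-1 on 1427005_at (gene ID 20620), a log2 ratio of -0.15. Its second probe set, 1443780_at, read 22.5 and 2.91, 7.73-fold lower, far below the median signal, in a bin where the robust SD was 1.85. Plk3, a stress-activated kinase, read 151 and 165 on 1434496_at (gene ID 12795), a log2 ratio of 0.13 with a robust SD of 0.43. Neither Plk2 on its bright probe set nor Plk3 moved beyond the spread of probe sets of like signal.

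Phlda1, a gene induced by growth factors and stress, was measured by 1418835_at (gene ID 21664). It read 3311 with PBS and 2970 with Nell-1, the lower by 1.11-fold, at a log2 ratio of -0.16. In its bin 21.3% of probe sets had a lower ratio, and its difference was within the robust SD of 0.21. After poly-A spike-in centring Phlda1 lay at 0.34, Plk2 at 0.35, Gadd45g at 0.52 and Plk3 at 0.62, with Plk3 the 1 gene past 1.5-fold. The median of all genes above the median signal was 0.46 in that setting. Of all 22519 probe sets above the median, 8158 were at least 1.5-fold higher there.

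**Figure D3:**
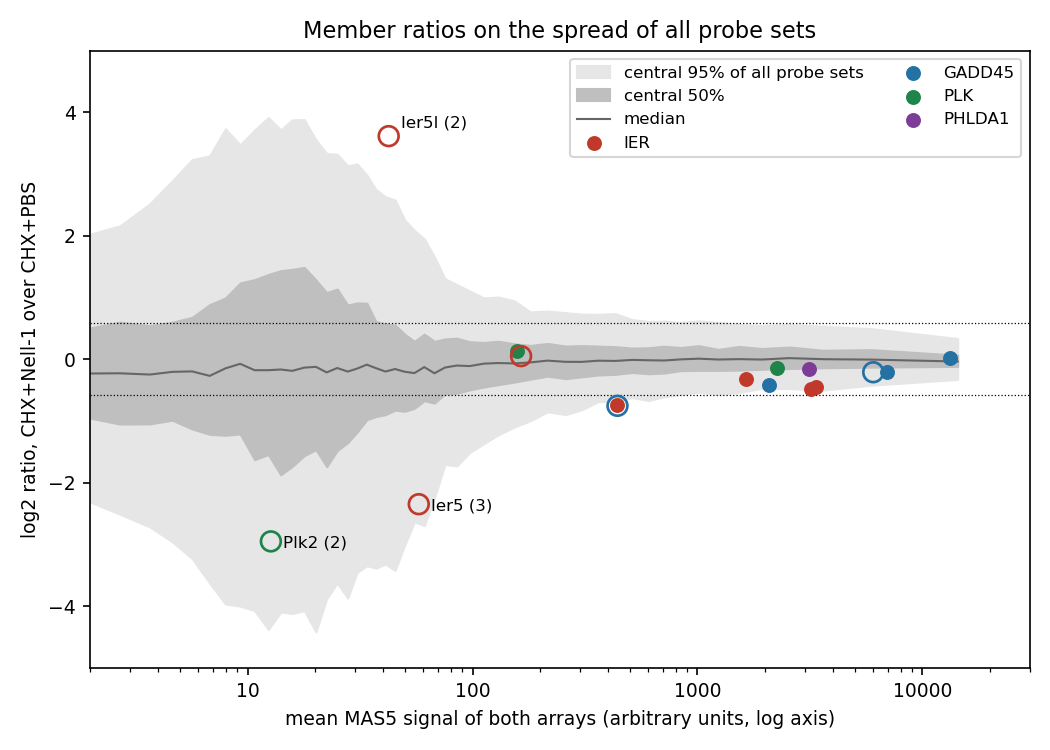
Log2 ratio of CHX+Nell-1 over CHX+PBS against the mean signal (arbitrary units, log axis). Grey bands hold the central 95% and 50% of all probe sets in 50 signal bins, the grey line is their median, filled points are each gene's brightest probe set and rings are further probe sets. The brightest probe sets lie between -0.74 and 0.13, the widest ratios (Ier5l 3.62, Plk2 -2.95) belong to dim probe sets, and the third Gadd45b ring surrounds the Ier5l point.

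By probe set, 10 of the 13 above the median were lower with Nell-1, against 53.4% of all 22519. At 1.5-fold, 2 of the 13 were lower against 8.48% of all, and 0 were higher against 5.97%. Of the 3 dimmer ones 2 were lower and 1 higher, all past 1.5-fold. Below the median such ratios were common, with 37.6% of all probe sets there at least 1.5-fold lower and 29.1% higher. Above the median only Gadd45b and Ier5 had more than 1 probe set, and those of Gadd45b were all lower.

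Genes around the members were described by lists chosen with earlier results known, counting the brightest probe set above the median, of which 12.1% of all 11600 genes passed 1.5-fold in either direction. None of 16 GADD45 partners and p38/JNK kinases passed, with 9 below 0 and 7 above and a median log2 ratio of -0.01. The largest ratios were those of Map2k6, a p38-activating kinase (405 and 291, -0.48), and Mapkapk3, a p38 target kinase (142 and 112, -0.34). The 1 other Mapkapk3 probe set above the median was at least 1.5-fold lower. Of 12 partners of IER proteins, mostly PP2A subunits, none passed and the median was -0.06. The PP2A regulatory subunit gene Ppp2r5e (1019 with PBS and 1428 with Nell-1) had a log2 ratio of 0.49. Ppp2r2d (1431 and 1800) had one of 0.33, and of its 2 other probe sets above the median 1 was at least 1.5-fold lower and 1 was above 0.

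Among all 11600 genes above the median signal 5309 had a log2 ratio above 0. Of the 14 other polo-like kinases and their partners 11 did, with a median of 0.19. Of these, Chek1, a DNA damage checkpoint kinase, was 1.56-fold higher (287 and 447), and both of its other probe sets above the median also passed 1.5-fold higher. Of 16 p53 pathway genes 1 was lower and 1 higher. Cdkn1a, the p21 cell-cycle inhibitor bound by GADD45 proteins, read 408 and 770, 1.89-fold higher, and its other probe set above the median did not pass. Bbc3, a pro-apoptotic gene, read 288 and 159, 1.82-fold lower. These 2 p53 targets differed in opposite directions, and Gadd45a, another, was 1.33-fold lower.

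Among 17 stress-related transcription factors 2 were 1.5-fold higher and none lower, and the median was -0.08. They were Brca1 (340 and 550) and Elk4, a serum response factor partner (858 and 1313), and their other probe sets disagreed. Of 2 others above the median for Brca1, 1 was at least 1.5-fold lower and 1 at least 1.5-fold higher, and the 1 other for Elk4 was at least 1.5-fold lower. Of 7 PHLDA paralogs and growth-factor genes, the receptor gene Erbb3 was 1.85-fold lower (101 and 54.4) and none was higher. Erbb3 was above 64.3 on the PBS array only, so it entered the count through the array where it is high. The 8 reference genes had a median of -0.02, and none passed, with the largest ratios in Hprt (4734 and 6004) and Tbp (1486 and 1257). Actb, encoding beta-actin, read 29110 and 27786.

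Other early-response families are given beside the 10 genes as values, with no test of the difference. Of 7 EGR and NR4A factors 3 were 1.5-fold lower and 1 higher, with a median of -0.51. That median is the value of Nr4a2, and of its 3 other probe sets above the median signal 2 were lower and 1 higher. Nr4a2, Nr4a3 and Egr2 lay in a dim signal bin, where 22.9% of all probe sets were at least 1.5-fold lower and 13.5% higher. Egr1, a zinc-finger factor, read 1293 and 506, 2.55-fold lower, Nr4a3 read 153 and 73.1, and Egr2 read 93.6 and 49.9. Egr2 likewise was above 64.3 with PBS only, which favours a lower call. Egr3 went the other way, with 80.8 and 166. Of 9 dual-specificity phosphatases 4 were lower and 1 higher, with a median of -0.11, and -0.37 with the dim member included. Dusp1, which inactivates MAP kinases, read 6875 and 3209, 2.14-fold lower, Dusp2 read 163 and 76.8, and Dusp10 read 1020.3 and 647. Dusp5 was higher, with 214 and 349. None of 7 ZFP36 and BTG/TOB genes passed, with a median of -0.14 and the mRNA decay factors Zfp36 at 249 and 174 and Zfp36l1 at 5275 and 4383. After centring on the poly-A spike-ins the medians of the listed families, over all measured members, were 0.24 for the 10 genes, -0.01 for EGR and NR4A, 0.13 for the phosphatases and 0.35 for ZFP36 and BTG/TOB. In that setting the median of all genes was 0.44 and that of the reference genes 0.48.

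**Figure D4:**
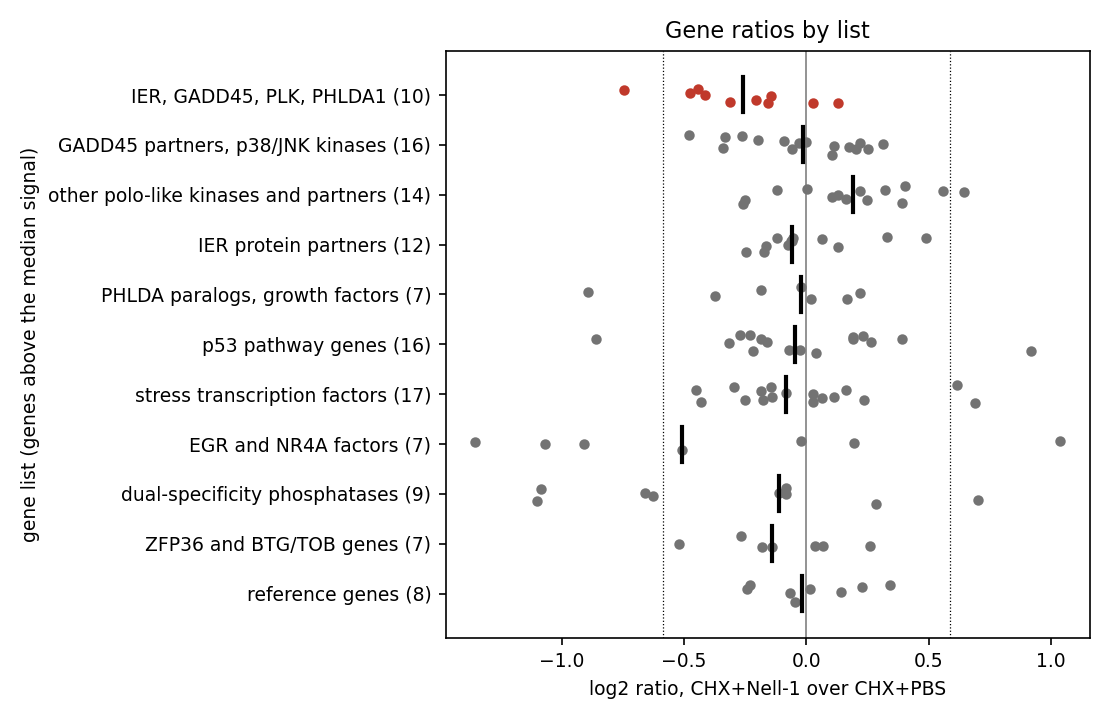
Log2 ratio of CHX+Nell-1 over CHX+PBS for each gene above the median signal, by list, with the number of genes in brackets. Points are genes, black bars are list medians, and dotted lines mark 1.5-fold. The 10 genes (red) have a median of -0.26 with Ier5l alone past 1.5-fold, and the EGR and NR4A factors have a median of -0.51.

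The ratios of the 10 genes moved little under rescalings that centre on the cell transcripts. With 8 genes lower and 2 higher as deposited, the same split was found after median centring, loess and quantile normalization, and it was 1 and 9 after poly-A spike-in centring. That last setting was added after seeing the data, and it shifts every ratio by the same amount and the median of all genes to 0.44. Averaging all probe sets of a gene moved Ier5 to -0.91 and Plk2 to -1.55 through their dim probe sets, and Ier5l to 1.44. Averaging only probe sets above the median put Ier5 at -0.20.

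**Figure D5:**
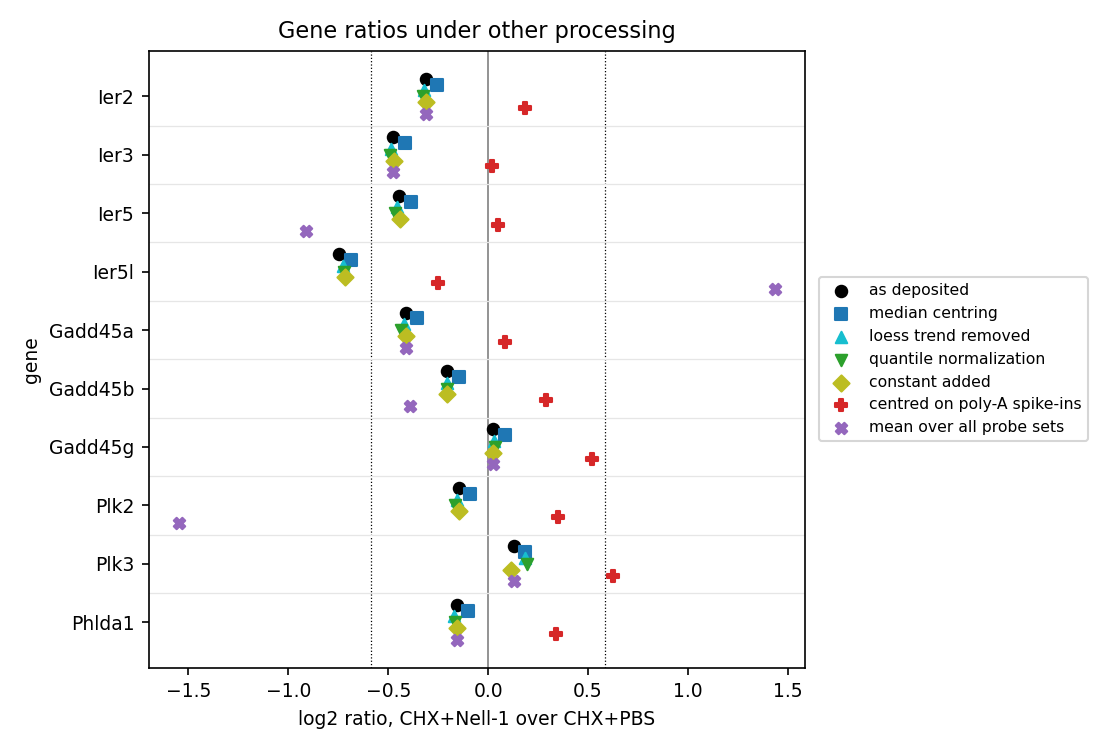
Log2 ratio of CHX+Nell-1 over CHX+PBS for each gene under 7 ways of processing the same 2 arrays, with dotted lines at 1.5-fold. Rescalings on cell transcripts lie close to the deposited values, poly-A spike-in centring moves all genes up alike, and the mean over all probe sets moves Ier5l to 1.44 and Plk2 to -1.55.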

How the data were processed

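The authors deposited linear intensities, MAS5 signals per probe set, from 1 array per group. Per the submitters' processing notes the tools were Affymetrix Expression Console and MAS5, of versions not given in the sources used here. The method subtracts a mismatch-based background, so ratios of low signals are unstable, and it scales each array by 1 factor.

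Of 45101 probe sets 64 controls were kept apart. The platform annotation gave 1 symbol to 34945 of the rest, several to 932 and none to 9160, and all 10 gene IDs were found in the RefSeq table of GRCm38.p6. Log2 ratios, counts past 1.5-fold and the robust SD (scaled median absolute deviation) in 10 signal bins were computed with Python 3.11.15, pandas 2.3.3 and statsmodels 0.14.6. The genes and lists were chosen with earlier results of these data known. Named list genes are up to 4 per list above the median signal and past 1.5-fold, or else the up to 2 with the largest ratios; those of the marker lists are not printed. Alternatives were rescalings, 17.9 added to both signals or set as their floor, a 2-fold threshold, other filters on signal and other choices of probe set. The code was tested on simulated data.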

Additional observations from a re-analysis of the deposited data

How the results depend on the processing

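No paired analysis was possible because the groups hold 1 array each, and for the same reason no replicate could be left out. With the poly-A spike-in centring, added after seeing the data, the median log2 ratio of the 10 genes was 0.24, with 0 genes 1.5-fold lower and 1 (Plk3) higher, 0 probe sets lower and 1 higher, and among all probe sets of at least median signal 499 lower against 8158 higher (1910 and 1344 as deposited). With the mean over all probe sets 2 genes were lower and 1 higher, and Ier5l turned to 1.44. At 2-fold, 0 genes and 0 probe sets of the 10 genes were lower, and 607 lower and 302 higher among all. Without a signal filter 4 of their probe sets were lower and 1 higher, against 10386 and 7896 among all. With both arrays above the median signal 1165 of all probe sets were lower. The median of the 10 genes was -0.35 with the mean over all probe sets. Apart from that setting and the poly-A spike-in centring, it lay between -0.27 and -0.20. Ier5 was at -0.20 as the mean over its probe sets above the median signal. Ier3 and Gadd45g have no value without probe sets of the shared types. Signal over background limits the 3 dim probe sets of Ier5, Ier5l and Plk2.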

Other observations

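Gadd45g had the highest mean signal of the 10 genes. The 5 other genes above the median signal with the nearest pair of log2 signals were Ndufb6, Sox4, Myh9, Cox6b1 and Grsf1, at distances of 0.02 to 0.04 on the log2 scale. Ndufb6 read 13155 with PBS and 13142 with Nell-1. The likeness is over 2 arrays and so describes only level and ratio on them.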
